A study of Rattus norvegicus with 11 samples.

Results

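Kidneys of obese rats that drank enalapril were set against kidneys of lean rats, cell type by cell type, in droplet single-cell RNA sequencing. The cells are all those that the authors' table puts in the lean or the obese plus enalapril group. There were 66752 such cells of 114615 in the table, from 4 lean and 3 treated rats, and the animal was the replicate. The 47863 cells of the 4 untreated obese rats are given beside them where they bear on a value. All 11 rats were male ZSF1 rats with the labelled genotype ZSF1-LeprfaLeprcp/Crl, which lean and obese animals share in the labels, and they were 12 weeks old when they arrived. They ate a high energy chow. The obese rats were randomised to vehicle or enalapril in the drinking water, and enalapril was adjusted weekly to body mass and to the mean water intake of the cage. The labels list no treatment for the lean and the untreated obese rats, and the sources used here give neither the dose nor the length of treatment. Kidneys were perfused, enzymatically dissociated and cleared of debris and dead cells, so the cells counted are those that came through that procedure.

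Obese ZSF1 rats carry a defective leptin receptor on both alleles and are used as a model of obesity, type 2 diabetes and kidney disease. Enalapril inhibits angiotensin-converting enzyme, which makes angiotensin II, a peptide that constricts vessels and drives aldosterone release and sodium retention. Along the nephron, the proximal tubule takes back most of the filtrate and the thick ascending limb (TAL) reabsorbs salt. The distal convoluted tubule (DCT) takes up sodium through the thiazide-sensitive cotransporter. The collecting duct then balances sodium, potassium and water through principal cells (PC) and acid and base through type A and type B intercalated cells (IC-A and IC-B). The comparison asks what still separated the treated obese kidney from the lean kidney. Abbreviated cell type names are the authors' and were read as kidney biologists commonly use them. The table holds no gene values, so no name could be checked against its markers and no gene can be described.

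The libraries differed in quality, and this touches the results that follow. Lean rats 1 to 4 had 11148, 4232, 7701 and 6469 cells, and treated rats 1 to 3 had 17948, 11452 and 7802. The median number of unique molecular identifiers in a cell (UMIs, counted RNA molecules) was 1417.5, 407, 2231 and 2065 for lean rats 1 to 4, and 1132, 2737 and 2492 for treated rats 1 to 3. One library, lean rat 2, stood apart, with 12 cells of at least 1000 UMIs. The median percent of UMIs from mitochondrial genes was 10.3, 2.90, 10.2 and 6.52 in the lean rats and 4.56, 11.7 and 19.3 in the treated rats. Thus the shallowest animal of each group also had the lowest mitochondrial percent. Across these 7 animals, 1001 cells (1.5%) had a barcode also found in another of them. The labels do not give the meaning of the first parts of the sample codes. Lean rats 1 and 2 share a first part, as do lean rats 3 and 4, and treated rats 1 and 2. The main fits took all animals as independent, and whether rats with a shared first part are so is not known. Each first part belongs to 1 group, so whatever it marks and the group cannot be told apart. A lower share can reflect fewer cells of a type in the tissue or fewer recovered from it, and these cannot be told apart either.

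Treated kidneys held more B cells and fewer DCT and mixed intercalated (IC-A/B) cells than lean kidneys. Of 20 cell types tested, edgeR's quasi-likelihood test called 3 (15%) at an adjusted p under 0.05, 1 higher and 2 lower, and 9 had an unadjusted p under 0.05. Treated and lean animals did not overlap in 6 of 20 types (30%): B cells, straight proximal tubule (PST) and descending thin limb (DTL) lay above, and DCT, IC-A (narrowly) and IC-A/B lay below. Other endothelial cells (Endo) were too few to test, with 20 cells in the 7 animals.

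**Figure D1:**
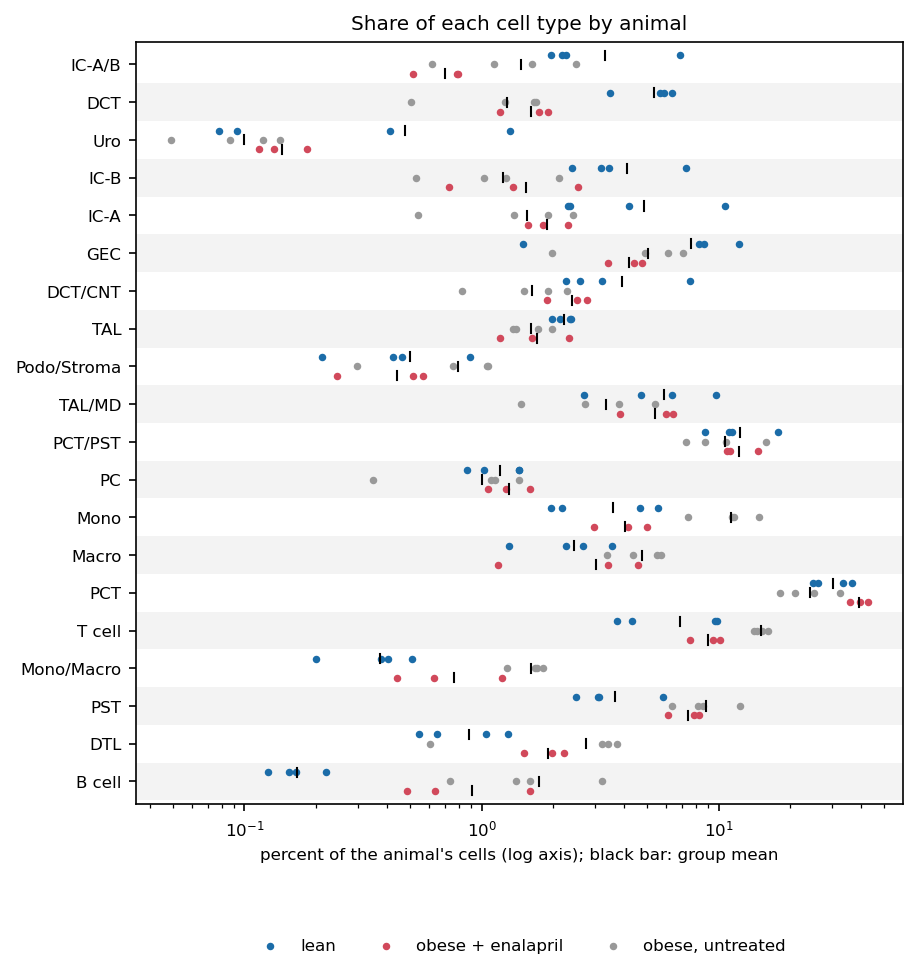
Share of each animal's cells in each of 20 cell types, as percent on a log axis, for lean, treated obese and untreated obese rats. Each point is 1 animal and each black bar a group mean. B cells are at 0.126% to 0.221% in lean rats and 0.485% to 1.60% in treated rats, and DCT cells at 3.49% to 6.35% and 1.19% to 1.90%.

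B cells, the antibody-forming lymphocytes, numbered 14, 7, 17 and 10 in lean rats and 87, 73 and 125 in treated rats. These counts were 0.126%, 0.165%, 0.221% and 0.155% of the lean animals' cells and 0.485%, 0.637% and 1.60% of the treated animals' cells. Each treated rat lay above every lean rat, and treated rat 3 was the highest. The log2 fold change was 2.43 ± 0.55 (SE, edgeR, adjusted p = 0.00679). Without treated rat 3 it was 1.75 ± 0.56 (adjusted p = 0.0440). B cells were called in all 21 alternative settings run. Untreated obese rats stood at 1.74% ± 1.05 (SD, n = 4), or 3.39 ± 0.54 against the same lean rats. The difference between treated and untreated obese rats, -0.95 ± 0.52, did not pass (adjusted p = 0.337).

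DCT cells made up 5.66%, 5.88%, 3.49% and 6.35% of the cells of lean rats 1 to 4, and 1.19%, 1.90% and 1.74% of those of treated rats 1 to 3. The lowest lean rat was well above the highest treated rat. The log2 fold change was -1.73 ± 0.47 (edgeR, adjusted p = 0.0100). It was -1.55 ± 0.54 without treated rat 1 and then missed the threshold (adjusted p = 0.0515). Untreated obese rats were at 1.28% ± 0.552 (SD, n = 4), -2.07 ± 0.43 against lean rats. Treated and untreated obese rats differed by 0.34 ± 0.44 (adjusted p = 0.646).

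DCT cells were also counted on either side of 5% mitochondrial UMIs. DCT cells with under 5% mitochondrial UMIs were 3.61%, 5.69%, 1.77% and 5.32% of all cells in lean rats and 0.529%, 0.210% and 0.141% in treated rats. DCT cells at or above 5% were 2.05%, 0.189%, 1.73% and 1.04% in lean rats and 0.663%, 1.69% and 1.60% in treated rats. The first set did not overlap between groups, and the second did. When only cells with at least 5% mitochondrial UMIs of every type were counted, a setting chosen after the data were seen, the DCT log2 fold change was -0.12 ± 0.65 (adjusted p = 0.894). That setting kept 8 DCT cells of lean rat 2. The mitochondrial percent of DCT cells itself differed between lean and treated rats, so a count on either side of 5% cannot tell fewer DCT cells from DCT cells with more mitochondrial RNA.

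IC-A/B cells, which carry a joint name in the authors' table, made up 1.96%, 6.90%, 2.18% and 2.27% of lean cells and 0.797%, 0.786% and 0.513% of treated cells. Every treated rat was below every lean rat, and lean rat 2 stood far above the other lean rats. The log2 fold change was -2.24 ± 0.57 (edgeR, adjusted p = 0.00938), and -1.61 ± 0.48 without lean rat 2 (adjusted p = 0.00776). In contrast to DCT, IC-A/B was called among cells with at least 5% mitochondrial UMIs too (-2.42 ± 0.71, adjusted p = 0.00768). Untreated obese rats were at 1.47% ± 0.800 (SD, n = 4), a difference of -1.18 ± 0.49 from lean rats. The treated rats were nominally below the untreated obese rats (-1.06 ± 0.54), but this did not pass (adjusted p = 0.337).

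The other intercalated types had lower treated means without passing the test. IC-A cells were at 2.31%, 10.6%, 4.17% and 2.35% in lean rats and 1.82%, 2.31% and 1.56% in treated rats (-1.35 ± 0.58, adjusted p = 0.0974). IC-B cells were at 4.09% ± 2.17 in lean and 1.55% ± 0.922 in treated rats (-1.39 ± 0.55, adjusted p = 0.0846). In both, lean rat 2 held the highest share of the 7 animals. PC, which handle salt and water, made up 1.19% ± 0.294 of lean and 1.31% ± 0.269 of treated cells (0.13 ± 0.46, adjusted p = 0.858). Cells of the joint DCT/CNT type, a name that takes in distal convoluted and connecting tubule, were at 3.92% ± 2.47 and 2.40% ± 0.468 (-0.70 ± 0.48, adjusted p = 0.296).

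In the proximal tubule and loop, PST and DTL sat above the lean range without a call. PST cells, the last part of the proximal tubule, were at 3.09%, 3.14%, 2.51% and 5.84% in lean rats and 8.26%, 6.12% and 7.86% in treated rats (1.02 ± 0.41, adjusted p = 0.0846). DTL cells were at 1.04%, 0.543%, 1.30% and 0.649% in lean rats and 1.5%, 1.99% and 2.22% in treated rats (1.10 ± 0.52, adjusted p = 0.108). The convoluted proximal tubule (PCT), the most abundant type, was at 30.3% ± 5.56 and 39.2% ± 3.52 (0.37 ± 0.37, adjusted p = 0.503). The joint PCT/PST type was at 12.3% ± 3.88 and 12.2% ± 2.12. TAL cells were at 2.22% ± 0.191 and 1.72% ± 0.575 (-0.37 ± 0.39, adjusted p = 0.503).

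Monocytes, macrophages and T cells, the main immune types, were not called. Monocytes were at 3.58% ± 1.79 in lean and 4.04% ± 1.01 in treated rats (0.17 ± 0.44, adjusted p = 0.830), beside 11.3% ± 3.00 in untreated obese rats. T cells were at 6.87% ± 3.30 and 9.06% ± 1.33 (0.40 ± 0.42, adjusted p = 0.503). Macrophages were at 2.45% ± 0.937 and 3.05% ± 1.72 (0.31 ± 0.47, adjusted p = 0.697). The joint Mono/Macro type was at 0.377%, 0.402%, 0.506% and 0.201% in lean rats and 0.440%, 0.629% and 1.22% in treated rats (1.02 ± 0.45, adjusted p = 0.0974). The share of all immune cells was 17.6%, 7.75%, 19.5% and 8.92% in lean rats and 14.6%, 17.1% and 21.6% in treated rats. These overlapped, with a difference of 4.37 percentage points (exact two-sided permutation p = 0.400, where 3 against 4 animals can reach 0.0571). A p of this size does not show that treated kidneys were at the lean level.

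In the glomerulus, endothelial cells (GEC) were at 8.67%, 1.49%, 12.2% and 8.30% in lean rats and 3.41%, 4.38% and 4.77% in treated rats (-0.88 ± 0.57, adjusted p = 0.278). The treated rats lay below every lean rat but lean rat 2. Podo/Stroma cells, a joint name for the filter's epithelial cells and supporting tissue, were at 0.498% ± 0.287 and 0.441% ± 0.172 (-0.20 ± 0.53, adjusted p = 0.830). Urothelial cells (Uro), which line the renal pelvis, were at 0.413%, 1.32%, 0.0779% and 0.0927% in lean rats and 0.134%, 0.183% and 0.115% in treated rats (-1.65 ± 0.75, adjusted p = 0.101).

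Summed into 9 compartments, edgeR called 0 (0%) between treated and lean rats, with 2 at an unadjusted p under 0.05, whereas DESeq2 called 2 and limma on logit shares 0. Those nearest to a call were the distal and connecting tubule, at 8.26%, 13.5%, 6.73% and 8.63% in lean and 3.08%, 4.70% and 4.27% in treated rats (-1.21 ± 0.42), and the collecting duct, at 8.93%, 26.2%, 10.8% and 7.90% in lean and 6.22%, 6.05% and 4.08% in treated rats (-1.30 ± 0.51). Both had an adjusted p of 0.0980, and in both every treated rat was below every lean rat.

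Shares of a whole must sum to the whole, so ratios between types were compared as well. A ratio of one type to another does not move when yet another type grows or shrinks. Of 190 ratios among the 20 types, limma on log2 ratios called 39 (20.5%), and 66 had an unadjusted p under 0.05. Of the 54 ratios holding B cells, DCT or IC-A/B, 32 were called, against 7 of the 136 holding none of them. Those types were picked because the same counts had called them, so this split was built in and is no separate result. Ratios that share a type are not independent of one another, so these counts describe the table and are not tested. The number rested on few animals, as 4 ratios were called without treated rat 3 and 12 without treated rat 2. With only cells of at least 1000 UMIs, a setting in which lean rat 2 has 12 cells, 0 were called. With that rat also left out, 38 were called, 28 of them among the 39. With only cells of at least 5% mitochondrial UMIs, limma called 0.

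**Figure D2:**
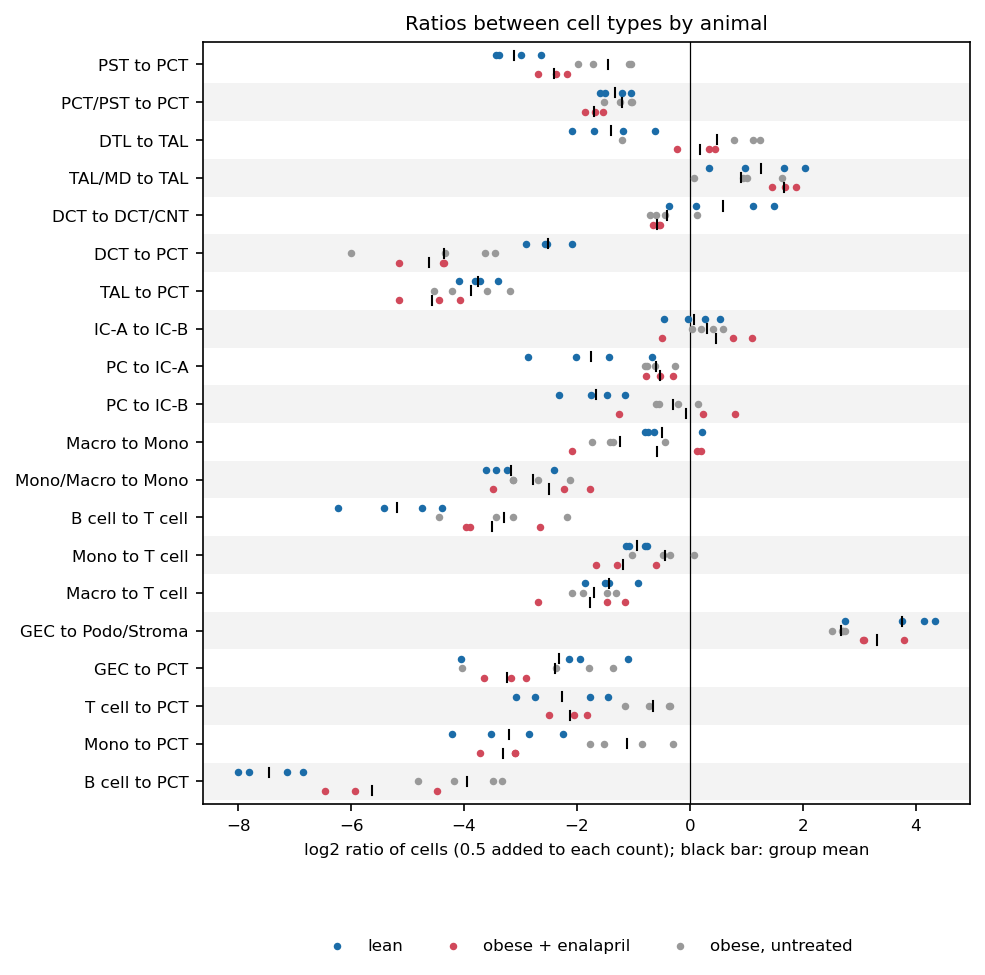
Log2 ratios between cell types in lean, treated obese and untreated obese rats, for the chosen list of ratios. Each point is 1 animal and each black bar a group mean. DCT cells per PCT cell run from 0.133 to 0.235 in lean rats and from 0.0279 to 0.0488 in treated rats.

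The largest called ratio was that of B cells to IC-A/B cells, at 0.0639, 0.0240, 0.101 and 0.0680 B cells per IC-A/B cell in lean rats and 0.608, 0.811 and 3.12 in treated rats. The groups were well apart, and the log2 difference was 4.28 ± 0.78 (limma, adjusted p = 0.00509). B cells per DCT cell were 0.0222, 0.0281, 0.0632 and 0.0243 in lean rats and 0.406, 0.335 and 0.919 in treated rats (3.94 ± 0.75, adjusted p = 0.00509). Ratios of B cells to IC-B (3.67 ± 0.87), to IC-A (3.29 ± 0.83) and to urothelial cells (3.06 ± 0.94) were called as well. Those to IC-B and IC-A were each called in 15 of 18 alternative settings, and that to urothelial cells in 9 of 18. B cells per T cell, the ratio within the lymphocytes, were 0.0128, 0.0446, 0.0229 and 0.0357 in lean rats and 0.0641, 0.0672 and 0.158 in treated rats. The treated rats were above every lean rat, but the log2 difference of 1.70 ± 0.65 did not pass (adjusted p = 0.0631).

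DCT ratios to other tubule segments were among those called. DCT cells per PCT cell were 0.170, 0.235, 0.133 and 0.174 in lean rats and 0.0279, 0.0484 and 0.0488 in treated rats (-2.11 ± 0.62, adjusted p = 0.0259). DCT cells per PST cell were 1.83, 1.87, 1.39 and 1.09 in lean rats and 0.144, 0.311 and 0.222 in treated rats (-2.81 ± 0.59, adjusted p = 0.00753). Thus DCT cells outnumbered PST cells in each lean rat and were outnumbered by them in each treated rat. The same turn was seen against DTL, at 5.44, 10.8, 2.69 and 9.79 DCT cells per DTL cell in lean rats and 0.793, 0.956 and 0.786 in treated rats (-2.88 ± 0.58, adjusted p = 0.00611). DCT to the joint DCT/CNT type, which may itself hold DCT cells, stood at 2.18, 0.776, 1.08 and 2.80 in lean rats and 0.633, 0.681 and 0.690 in treated rats (-1.17 ± 0.57, adjusted p = 0.147). That ratio was called in 3 of 19 alternative settings, among them the fit without lean rat 2 (-1.49 ± 0.51, adjusted p = 0.0470). Its sign turned among cells with at least 5% mitochondrial UMIs (1.01 ± 0.93, adjusted p = 0.534).

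IC-A/B cells moved against PST, DTL and Mono/Macro. IC-A/B cells per PST cell were 0.637, 2.19, 0.871 and 0.389 in lean rats and 0.0964, 0.128 and 0.0653 in treated rats (-3.15 ± 0.71, adjusted p = 0.00856). DTL cells per IC-A/B cell differed by 3.22 ± 0.77 (adjusted p = 0.0112). IC-A/B cells per Mono/Macro cell were 5.21, 17.2, 4.31 and 11.3 in lean rats and 1.81, 1.25 and 0.421 in treated rats (-3.02 ± 0.68, adjusted p = 0.00856). In the collecting duct, IC-A to IC-B did not pass (0.38 ± 0.55, adjusted p = 0.630), nor did PC to IC-A (1.22 ± 0.57, adjusted p = 0.136) or PC to IC-B (1.59 ± 0.59, adjusted p = 0.0618). PC per IC-B cell were 0.451, 0.198, 0.297 and 0.359 in lean rats and 0.418, 1.17 and 1.74 in treated rats, so treated rat 1 lay within the lean range.

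The 7 called ratios without B cells, DCT or IC-A/B all set a loop, proximal or myeloid type against an intercalated or endothelial type. They were DTL to IC-B (2.62 ± 0.69), DTL to IC-A (2.24 ± 0.67) and DTL to GEC (1.70 ± 0.59), IC-B to PST (-2.54 ± 0.70) and IC-A to PST (-2.16 ± 0.73), and IC-B to Mono/Macro (-2.41 ± 0.69) and IC-A to Mono/Macro (-2.03 ± 0.65). Adjusted p-values in limma ran from 0.0195 to 0.0476. These 7 were named because they were few, after their values were seen.

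Of the 20 ratios in the chosen list, limma called 2, DCT to PCT and B cells to PCT (1.83 ± 0.61, adjusted p = 0.0449). DCT to PCT was called in 12 of 19 alternative settings and B cells to PCT in 9 of 18. DTL cells per TAL cell were 0.436, 0.230, 0.654 and 0.304 in lean rats and 1.26, 0.854 and 1.36 in treated rats without passing (1.58 ± 0.64, adjusted p = 0.0775). PST to PCT (0.70 ± 0.52), PCT/PST to PCT (-0.36 ± 0.50), TAL to PCT (-0.81 ± 0.55), TAL/MD to TAL (0.41 ± 0.58) and GEC to PCT (-0.93 ± 0.72) were not called. Neither were GEC to Podo/Stroma (-0.44 ± 0.54), nor any of the 4 ratios within the myeloid cells or of them to T cells. Those were Macro to Mono (-0.09 ± 0.63), Mono/Macro to Mono (0.67 ± 0.58), Mono to T cell (-0.24 ± 0.53) and Macro to T cell (-0.33 ± 0.55). Monocytes per PCT cell, 0.139, 0.0870, 0.211 and 0.0537 in lean rats, were 0.117, 0.0757 and 0.116 in treated rats (-0.10 ± 0.60, adjusted p = 0.899). T cells to PCT was likewise not called (0.14 ± 0.56, adjusted p = 0.869).

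Against the same lean rats, 98 of 190 ratios were called in untreated obese rats, and 0 differed between treated and untreated obese rats in limma, with 39 at an unadjusted p under 0.05. Both comparisons with lean share the lean rats. Monocytes to PCT was 2.10 ± 0.55 in untreated obese against lean rats, beside -0.10 ± 0.60 in treated against lean rats, and T cells to PCT 1.60 ± 0.52 beside 0.14 ± 0.56. The direct differences of treated from untreated rats did not pass (-2.20 ± 0.60, adjusted p = 0.155, and -1.47 ± 0.56, adjusted p = 0.190). DCT to PST was -3.49 ± 0.55 in untreated rats beside -2.81 ± 0.59 in treated rats, with a direct difference of 0.68 ± 0.59 (adjusted p = 0.546). B cells to IC-A/B stood at 4.3 ± 0.72 beside 4.28 ± 0.78 (direct difference -0.02 ± 0.78, adjusted p = 0.985).

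The number of genes detected per UMI measures how varied the RNA of a cell is, and it falls as more UMIs are counted. DCT cells of treated rats had fewer genes per UMI than those of lean rats, the lone call among 19 types with enough cells (5.26%). The median DCT cell had 61.2, 71.5, 56.6 and 55.3 genes per 100 UMIs in lean rats and 45.6, 45.6 and 40.4 in treated rats. The highest treated rat lay below the lowest lean rat, as it did in TAL (narrowly) and Podo/Stroma but in no other type tested. The log2 difference was -0.47 ± 0.12 (limma, adjusted p = 0.0279), and the call was lost in 5 of the 11 fits that left out 1 animal. TAL (-0.45 ± 0.15) and DTL (-0.38 ± 0.13) came next, both at an adjusted p of 0.0693, then IC-A (-0.28 ± 0.18) and macrophages (-0.25 ± 0.15), both at 0.375. All 19 types had a lower treated mean, with a median log2 difference of -0.18. Median UMIs per cell were nominally higher in treated rats in all 19 types, and limma called 0 of them, with 1 at an unadjusted p under 0.05.

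Cells of like depth were therefore compared, those with at least 1000 and under 2000 UMIs. This leaves out all types of lean rat 2 and left 12 types with enough cells. DCT was again the lone type called (8.33%). It had 57.8, 57.3 and 57.2 genes per 100 UMIs in lean rats 1, 3 and 4, from 337, 111 and 169 cells. Treated rats 1 to 3 had 40.5, 44.0 and 40.5, from 64, 85 and 46 cells. The lean animals lay within 1 gene per 100 UMIs of each other, and all treated animals were far below them. Median UMIs of these cells were 1329, 1463 and 1443 in the lean rats and 1418.5, 1460 and 1494 in the treated rats. The log2 difference was -0.46 ± 0.07 (limma, adjusted p = 0.000175), and DCT was called in all 19 alternative settings that tested it. Among these, the fit without lean rat 2 repeats the main fit, as that rat gives no value here. The setting of only cells with under 10% mitochondrial UMIs did not test DCT, as too few animals had enough such cells. The difference was smaller in other windows, at -0.33 ± 0.08 from 500 to under 1000 UMIs (adjusted p = 0.000944) and -0.25 ± 0.07 from 2000 to under 4000 UMIs (adjusted p = 0.0306). Untreated obese rats were at 45.0 ± 3.76 (SD, n = 4), -0.36 ± 0.06 against lean rats, with -0.11 ± 0.06 between treated and untreated rats (adjusted p = 0.656).

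**Figure D3:**
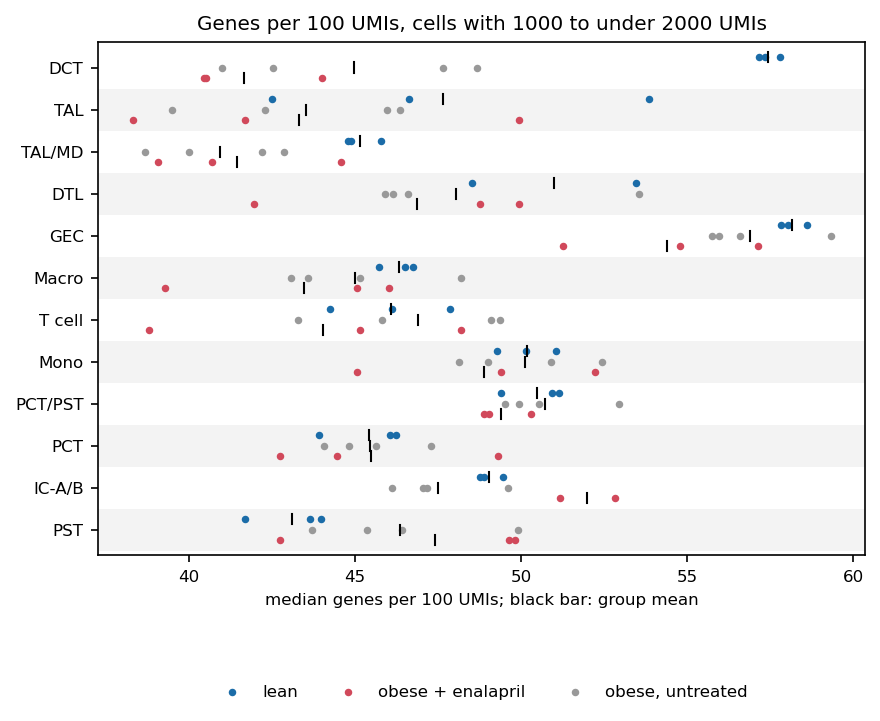
Median genes per 100 UMIs of cells with at least 1000 and under 2000 UMIs, by cell type, for lean, treated obese and untreated obese rats. Each point is 1 animal with at least 20 such cells and each black bar a group mean. DCT separates the 3 lean animals (57.2 to 57.8) from the 3 treated animals (40.5 to 44.0).

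In that window the median mitochondrial percent of DCT cells was 0.983, 4.18 and 0.120 in lean rats and 3.40, 30.1 and 33.0 in treated rats. The difference of 20.4 ± 7.08 points did not pass (limma, adjusted p = 0.209). Treated rat 1 lay within the lean range here, and treated rats 2 and 3 lay above it. With the mitochondrial percent of the type as a covariate, chosen after the data were seen, the DCT difference was -0.43 ± 0.09 (adjusted p = 0.00517). Among window cells with at least 5% mitochondrial UMIs, DCT had 53.0, 47.1 and 48.2 genes per 100 UMIs in lean rats and 42.4, 44.3 and 39.7 in treated rats, which did not overlap. Among those under 5%, it had 59.6, 59.2 and 58.0 in lean rats and 37.4 in treated rat 1. The other treated rats had too few such cells.

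No other type was called at like depth. TAL/MD, a joint name that takes in the macula densa, which senses salt in the tubule, had 45.1 ± 0.551 genes per 100 UMIs in the 3 lean rats and 41.5 ± 2.82 in the 3 treated rats (SD; -0.13 ± 0.06, limma, adjusted p = 0.207). TAL (-0.14 ± 0.11) and DTL (-0.12 ± 0.09) both had an adjusted p of 0.309. PST had a higher treated mean, at 43.1 ± 1.23 and 47.4 ± 4.03 (0.13 ± 0.07, adjusted p = 0.207). GEC, IC-A/B and PCT are named after their values were seen. GEC had 58.1 ± 0.405 and 54.4 ± 2.96 (-0.10 ± 0.05, adjusted p = 0.207), with no overlap of the groups. Nor did the groups overlap in DCT, TAL/MD (narrowly) and IC-A/B, while they did in the other types tested. IC-A/B had 49.0 ± 0.375 and 52.0 ± 1.18, the latter from 2 treated rats (0.08 ± 0.05, adjusted p = 0.283), and PCT had 45.4 ± 1.29 and 45.5 ± 3.40. At like depth 9 of 12 types had a lower treated mean, with a median log2 difference of -0.08.

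The mitochondrial percent showed 1 called type of 19 (5.26%), and it too was DCT. Its median was 1.16, 0, 4.75 and 0.136 in lean rats and 6.50, 24.6 and 28.4 in treated rats. Each treated rat was above every lean rat, and treated rats 2 and 3 were far above. The difference was 18.3 ± 4.56 percentage points (limma, adjusted p = 0.0367). This call was fragile: it was lost in 9 of the 11 fits that left out 1 animal, with an adjusted p of up to 0.223 without treated rat 2. Without treated rat 1 the difference was 25 ± 3.02 points (adjusted p = 0.000103). Untreated obese rats were at 30.1 ± 4.14 (SD, n = 4), 28.6 ± 4.22 points above lean rats, and treated rats differed from them by -10.3 ± 4.56 points (adjusted p = 0.611).

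**Figure D4:**
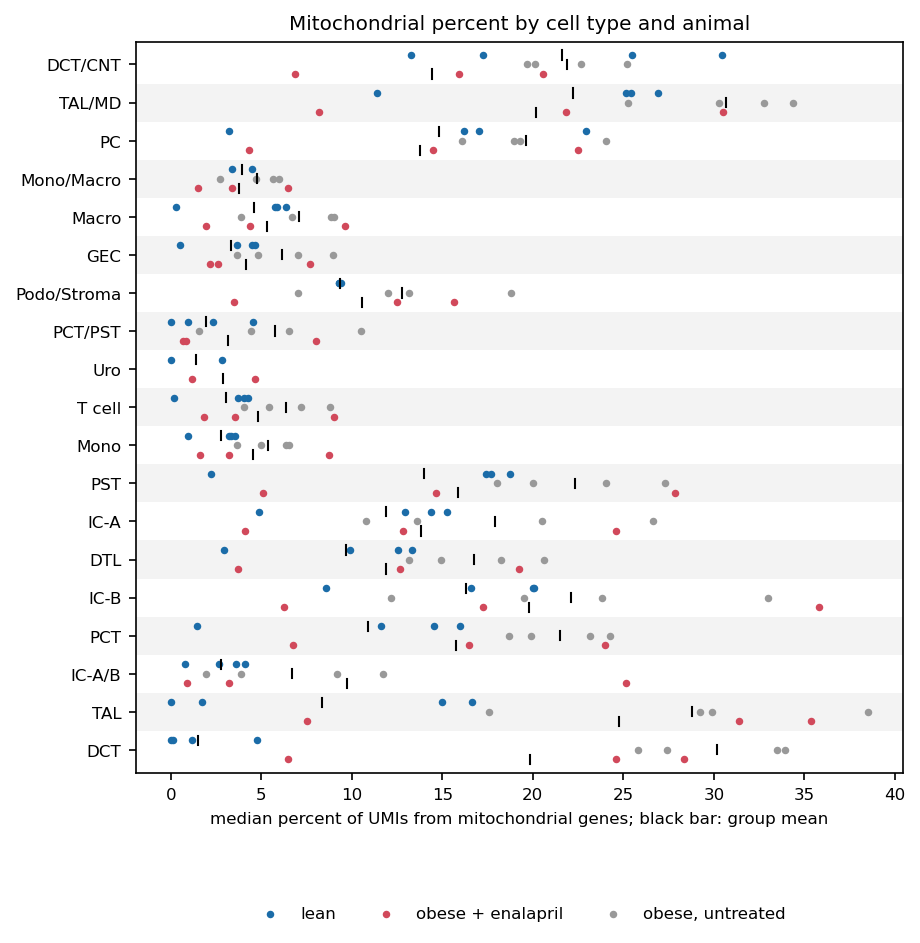
Median mitochondrial percent of each of 19 cell types in lean, treated obese and untreated obese rats. Each point is 1 animal with at least 20 cells of the type and each black bar a group mean. DCT lies at 0 to 4.75 in lean rats and 6.50 to 28.4 in treated rats, while most other types overlap.

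The DCT is known as a segment rich in mitochondria, but its lean cells carried less mitochondrial RNA than DCT/CNT cells of the same animals. The medians of lean IC-A/B and PCT/PST cells lay within the lean range of DCT. DCT/CNT cells had medians of 25.5, 13.3, 30.4 and 17.2 in lean rats and 6.87, 15.9 and 20.6 in treated rats (-7.14 ± 4.32 points, limma, adjusted p = 0.796). In each lean rat DCT lay below DCT/CNT, whereas in treated rats 2 and 3 it lay above. TAL cells were at 16.6, 0, 15 and 1.71 in lean rats and 7.51, 31.4 and 35.4 in treated rats (16.4 ± 7.06 points, adjusted p = 0.377). Lean TAL cells thus varied widely, with lean rats 2 and 4 near DCT. TAL/MD cells were at 22.2 ± 7.27 and 20.2 ± 11.3.

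No other type was called for the mitochondrial percent. PCT was at 14.6, 1.45, 16.0 and 11.6 in lean rats and 6.78, 16.5 and 24.0 in treated rats (4.85 ± 4.32 points, adjusted p = 0.876). PST was at 17.7, 2.21, 18.8 and 17.4 in lean rats and 5.11, 14.6 and 27.9 in treated rats. Treated rat 3 had the highest median of the 7 animals in PST, T cells (9.01), monocytes (8.76), macrophages (9.63) and GEC (7.70), and lean rat 2 the lowest in these types. T cells were at 3.05 ± 1.92 in lean and 4.80 ± 3.75 in treated rats, monocytes at 2.76 ± 1.19 and 4.54 ± 3.74, and macrophages at 4.58 ± 2.87 and 5.31 ± 3.93. GEC were at 3.34 ± 1.92 and 4.15 ± 3.08, and Podo/Stroma at 9.35 ± 0.0686 (SD, n = 3) and 10.5 ± 6.31. IC-A/B cells were at 3.60, 4.12, 2.66 and 0.809 in lean rats and 3.20, 0.889 and 25.2 in treated rats (6.95 ± 5.03 points, adjusted p = 0.876), so treated rats 1 and 2 lay within the lean range. Averaged with equal weight over 16 types, the treated rats were 3.25 points above lean rats (exact two-sided permutation p = 0.457).

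The S and G2M scores gauge genes of DNA synthesis and of division, and the authors' phase call follows from them. limma called 0 of 19 types for the S score (0%; 4 at an unadjusted p under 0.05), 0 of 19 for the G2M score (0%; 2), 0 of 19 for the percent of cells called S (0%; 1) and 0 of 19 for the percent called G2M (0%; 2). No cycling is read from these calls. The part of free RNA in them was not tested, and the main fits did not take depth into account.

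**Figure D5:**
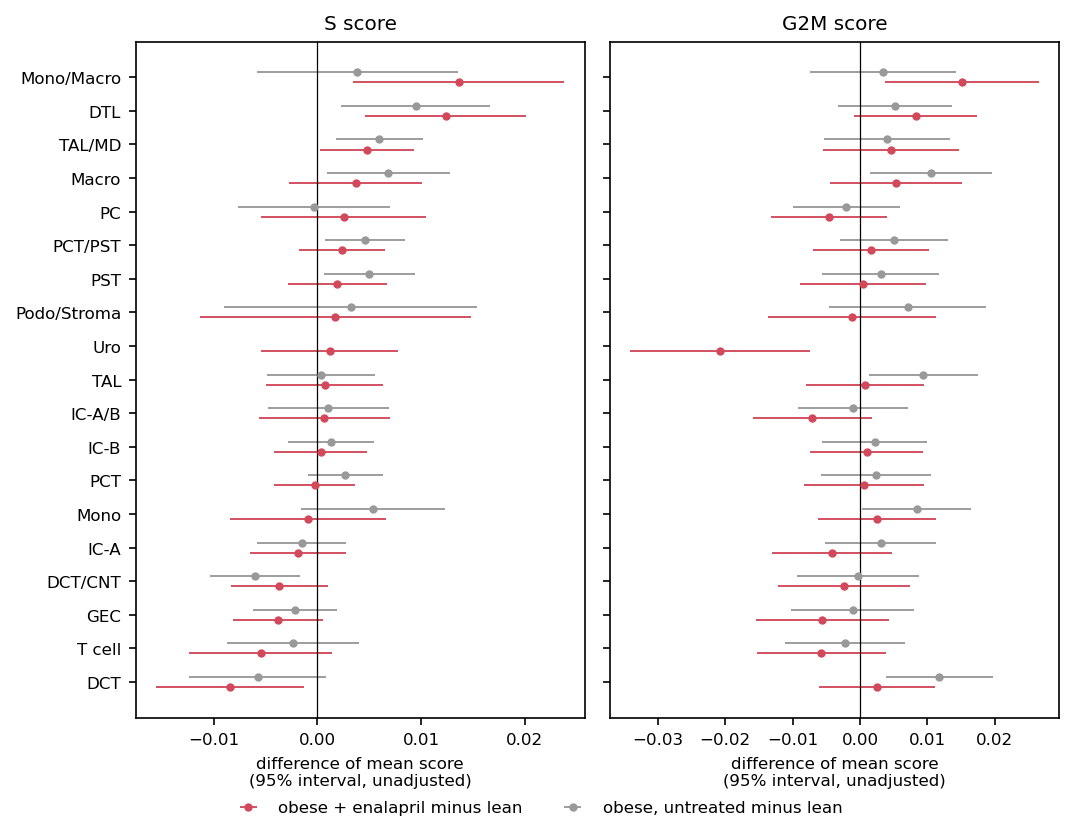
Differences from lean rats in mean S score and mean G2M score, by cell type, for treated obese and untreated obese rats. Each point is the fitted difference of 1 cell type, and each bar its unadjusted 95% interval. In the S score of DTL, treated rats differ from lean rats by 0.0124, with an interval of 0.00463 to 0.0202.

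Nearest to a call in the S score was DTL, at -0.0111, -0.00346, -0.0184 and -0.0145 in lean rats and -6.67e-05, 0.00654 and -0.00482 in treated rats. Treated rats 1 and 2 were above every lean rat (0.0124 ± 0.0036, limma, adjusted p = 0.0848). TAL/MD cells had a smaller difference, from -0.00399 ± 0.00243 in lean to 0.000797 ± 0.00297 in treated rats (0.0048 ± 0.0021, adjusted p = 0.182). The percent of DTL cells called S was 29.3, 8.70, 25 and 21.4 in lean rats and 31.5, 39.5 and 33.5 in treated rats (13.7 ± 5.99 points, adjusted p = 0.444). The next largest differences in this percent were those of urothelial cells (11.7 ± 7.84 points), TAL/MD (9.26 ± 5.99), PST (7.67 ± 5.99) and PC (7.05 ± 5.99), and these 4 had an adjusted p of 0.793. DTL cells of treated rats also had 3276 ± 1528 median UMIs against 1178 ± 548 in lean rats, and the main fits of these scores did not take depth into account. Over 19 alternative settings the DTL difference in S score ran from 0.00537 to 0.0185, and it was called in 3 of them. Mono/Macro cells, from lean rats 1 and 3 alone, had S scores of 0.00657 and -0.000377 there and 0.0267, 0.0139 and 0.00963 in treated rats (0.0136 ± 0.0046, adjusted p = 0.128). Their G2M scores were 0.00940 and 0.0210 in the lean rats and 0.0401, 0.0243 and 0.0265 in treated rats (0.0151 ± 0.0056, adjusted p = 0.107). DCT cells had S scores of 0.00490, 0.00176, 0.00179 and 0.0150 in lean rats and -0.00544, -0.00299 and 0.000821 in treated rats. The groups did not overlap in DCT and Mono/Macro, and overlapped in the other types tested. The DCT difference of -0.0084 ± 0.0033 was not called (limma, adjusted p = 0.156).

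T cells, the type with the highest mean scores, had S scores of 0.0287, 0.0220, 0.0260 and 0.0286 in lean rats and 0.0142, 0.0278 and 0.0205 in treated rats (-0.0055 ± 0.0032, limma, adjusted p = 0.307). Their G2M scores were 0.0565, 0.0606, 0.0530 and 0.0543 in lean rats and 0.0395, 0.0533 and 0.0584 in treated rats (-0.0057 ± 0.0047, adjusted p = 0.671). The lowest adjusted p of the G2M score was that of urothelial cells, at -0.0206 and -0.000885 in lean rats 1 and 2 and -0.0336 and -0.0293 in treated rats 1 and 2 (-0.0207 ± 0.0064, adjusted p = 0.0737). DTL (0.0083 ± 0.0045, adjusted p = 0.470) and IC-A/B (-0.0071 ± 0.0043, adjusted p = 0.538) had smaller differences. Monocytes shared the lowest adjusted p of the percent called G2M with urothelial cells (-18.3 ± 7.55 points). Monocytes were at 37.7, 23.9, 41.2 and 36.2 in lean rats and 43.1, 41.6 and 44.8 in treated rats. The groups did not overlap there or in urothelial cells, and overlapped in the other types tested. The monocyte difference was 8.39 ± 3.59 points (limma, adjusted p = 0.442). T cells (4.71 ± 3.93 points), DCT (4.37 ± 2.58) and Podo/Stroma (4.13 ± 4.46) followed at adjusted p-values of 0.512 to 0.708. Over 16 types with equal weight, treated and lean rats differed by 0.000312 in the S score and by -0.000105 in the G2M score, with exact two-sided permutation p-values of 0.743 and 0.914.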

How the data were processed

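The authors deposited 1 table with a row per cell and no gene values. For each cell the authors deposited 2 counts, its UMIs and its genes, per the file headers. The headers do not say whether these counts were corrected. They deposited the mitochondrial share as a percent. For DNA synthesis (S) and division (G2M) the authors deposited 1 module score each and a phase call. Per the submitters' processing notes, Cell Ranger 7.0.1, Seurat 4.3.0 and build rn6 were used, with no roles stated. The sources used here do not state the cell filters, how doublets and free RNA were treated, or how types were named. No cell in the table had a mitochondrial percent above 49.99 or more than 2971 genes. Whether cuts were set near these values, which would bound both measures, is not given. The percent times the UMIs gave a whole number in 3.43% of cells, so it was taken over a larger total than the deposited UMIs. The gap, recovered for 59.2% of cells, had a median of 14.1% in lean rat 2 and 1.46% to 5.23% in the other 6 lean and treated rats.

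Cells per type were fitted with edgeR 4.0.16 (quasi-likelihood, all cells as library size, types with a mean of at least 10 cells), log2 type to type ratios (0.5 added to each count) and per-type medians or mean scores (at least 20 cells per animal) with limma 3.58.1. All 11 animals shared 1 fit. Benjamini-Hochberg adjustment ran over all types, compartments or ratios of a measure, at 0.05, and intervals cover animals only as far as 3 against 4 allow. Whole-kidney values had exact permutation tests. edgeR's SE is the fold change over the root of F. Nothing in the labels pairs animals across groups, and each sample is a kidney of 1 rat. Some animals of a group share the first part of the sample code, whose meaning is not given. The fits did not model this. Fits were tested on simulated data. Alternatives included DESeq2 1.42.0, limma on logit shares, TMM, array weights, other cell filters, a replicate block and each animal left out. Types named are those called, the 5 largest differences of a measure and a fixed set of tubule, glomerular and immune types. Ratios named are the 10 largest called and a list of 20. Members, lists and tests were chosen with earlier results of these data known. Tables were made in Python 3.11.15 with pandas 2.3.3, numpy 2.4.6 and scipy 1.17.1, plots with matplotlib 3.10.9, and fits in R 4.3.3.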

Additional observations from a re-analysis of the deposited data

Results flagged for a closer look

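In 13 of 95 results tested, 1 lean animal lay apart from the other 3 by Dixon's criterion (0.829 for 4 samples), which chance meets in about 1 in 20 groups. The groups share animals and cells, so the count is not a test. Lean rat 2, the shallowest library, was that animal in 11. It was high in the share of IC-A/B cells (6.90%, others 1.96% to 2.27%) and of the collecting duct (26.2%, others 7.90% to 10.8%), and low in the log2 ratio of B cells to IC-A (-5.90, others -4.20 to -3.86). Its median mitochondrial percent was low in macrophages (0.290, others 5.76 to 6.37), monocytes (0.982, others 3.20 to 3.55), PST (2.21, others 17.4 to 18.8) and T cells (0.185, others 3.74 to 4.26). Its G2M score was high in DTL (-0.00827, others -0.0230 to -0.0223) and over 16 types (-0.00597, others -0.0159 to -0.0143). Its percent of cells called S was low in TAL/MD (7.79, others 36.6 to 40.7), and its percent called G2M was low in T cells (41.4, others 56.8 to 59.7). Lean rat 4 was high in the log2 ratio of macrophages to monocytes (0.210, others -0.789 to -0.639). Lean rat 1 was low in the whole-kidney log2 ratio of myeloid to lymphoid cells (-0.366, others -0.0385 to 0). The part of depth in these values was not tested.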

How the results depend on the processing

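Counts of calls are given against 3 types, 0 compartments, 39 ratios, 1 type each for genes per UMI (all cells and those of 1000 to under 2000 UMIs) and mitochondrial percent, and 0 for the scores and phase percents. The replicate block gave 5 types, 3 compartments, 2 types in the G2M score and 1 in the percent called G2M. The labels do not say that same-numbered animals are paired. Correlations of same-numbered lean and treated rats (-0.109, 0.291 and 0.516) are too few to settle it. No call is read from the replicate block. DESeq2 gave 5 types and 2 compartments. Ratios numbered 76 with array weights, 23 among common types and 0 among cells with at least 1000 UMIs or at least 5% mitochondrial UMIs. Genes per UMI gave 0 with only lean and treated animals or the mean, 3 with array weights, 8 without lean rat 2 and treated rat 1, and 2 with a UMI covariate, under 10% mitochondrial UMIs, or log10 genes over log10 UMIs. At 1000 to under 2000 UMIs there were 4 with the mitochondrial covariate, and 2 in a window of 500 to under 1000 UMIs. The mitochondrial percent gave 0 with only lean and treated animals or within 1000 to under 2000 UMIs, and 2 without lean rat 2 and treated rat 1. The S score gave 1 with at least 10 or at least 50 cells, and the G2M score 1 with at least 10 cells, under 10% mitochondrial UMIs or the median. The whole-kidney G2M difference moved to 0.00375 among cells with at least 1000 UMIs. Leaving out 1 animal gave 0 to 2 compartments, 4 to 52 ratios, 0 to 3 types in genes per UMI, 1 to 2 at 1000 to under 2000 UMIs, 0 to 2 in mitochondrial percent, 0 to 2 in the S score, 0 to 1 in the G2M score and 0 to 1 in the percent called S. The cause of these shifts was not tested. Settings that left out lean rat 2 and treated rat 1 together, counted cells of at least 5% mitochondrial UMIs, used the mitochondrial covariate or left lean rat 2 out at 1000 UMIs were chosen after seeing the data. Depth limits lean rat 2 in every measure, and rare types such as B cells (7 to 17 cells in a lean rat) carry large counting error.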
